A study of Rattus norvegicus with 8 samples.

Results

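The interferon response genes examined here were the transcription factors Irf1, Irf3, Irf7, Irf9 and Stat2, the RNA sensor Ifih1, and the interferon-induced effectors Isg15, Ifit3 and Mx2. They were taken by gene symbol from a table of 24059 genes. All 9 symbols were present, each on a single row, and all 9 passed the filter on low counts that left 16976 genes for testing. In germ cells collected after doxorubicin, none of the 9 genes differed from control cells beyond the spread between rats at an adjusted p under 0.05. The smallest p belonged to Mx2, a GTPase with antiviral activity, which averaged 7.18 ± 0.59 CPM (SD, n = 4) in control rats and 8.54 ± 0.46 (SD, n = 4) in doxorubicin rats and did not pass the test. CPM is the count of a gene scaled to a common library size (TMM-scaled CPM).

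PolyA RNA was sequenced from GFP-positive germ cells of the testes of prepubertal transgenic Sprague-Dawley (GCS-EGFP) rats. The animals were exposed in vivo to doxorubicin at 5 mg/kg (4 rats, numbered 2, 3, 6 and 8) or to vehicle (4 control rats, numbered 1, 4, 5 and 9) at postnatal day 6, and cells were isolated 24 h later. Both groups carried the reporter, and the promoter that drives it is not given in the sources used here. The labels carry the tag SSC, which they do not spell out, and name neither the vehicle nor the way of sorting. Doxorubicin is an anthracycline cancer drug that poisons topoisomerase II and causes DNA strand breaks, and the comparison asks which transcripts of these cells differ soon after the drug.

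Interferons are secreted proteins that bind receptors on the same or neighbouring cells and signal through the kinases Jak1, Jak2 and Tyk2. Type I and type III interferons activate a complex holding Stat2 and Irf9 that binds the interferon-stimulated response element (ISRE) of target genes, whereas interferon gamma acts mainly at gamma-activated sites (GAS). Interferon production starts with sensors of viral nucleic acid such as Ifih1 (MDA5), which signal to Irf3 and Irf7, and DNA damage can also engage the pathway when DNA reaches the cytosol. In the testis, macrophages and Sertoli cells are known producers of interferon.

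The elements through which these genes are known to respond can be read in part of their promoters. RefSeq promoter windows of the GRCr8 assembly, from 250 bases before to 50 bases after the annotated start, were matched for 7 of the 9 genes (Irf1, Irf3, Irf7, Irf9, Stat2, Ifit3 and Ifih1). They were searched for an ISRE core (GAAA, any 2 bases, GAAA) on both strands, and for a GAS core (TTC, any 3 bases, GAA), which reads the same on both strands. The ISRE core was present in 3 of these 7 windows (Irf7, Ifit3 and Ifih1) and in 3.92% of all 33469 promoter windows of that length. The GAS core was present in 2 of 7 (Irf1 and Irf9) and in 8.87% of all windows. Among 122 promoter windows of other genes of the pathway, 49 held the ISRE core and 23 the GAS core. The matches are printed 5′ to 3′ on the gene's strand with 20 bases on each side, with the motif in capitals, to show how far the letters differ between genes that share an element. An ISRE core on the opposite strand reads TTTC, any 2 bases, TTTC. A match is a description of the letters and not evidence of binding in these cells.
Irf7, ISRE core 69 bases before the start, chr1:205800063-205800112, minus strand: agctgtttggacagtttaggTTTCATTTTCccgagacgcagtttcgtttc
Ifit3, ISRE core 44 bases before the start, chr1:241527262-241527311, plus strand: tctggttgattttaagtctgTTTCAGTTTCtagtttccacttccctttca
Ifih1, ISRE core 59 bases before the start, chr3:67683998-67684047, minus strand: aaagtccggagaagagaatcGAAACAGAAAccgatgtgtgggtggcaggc
Irf1, GAS core 142 bases before the start, chr10:38417773-38417821, plus strand: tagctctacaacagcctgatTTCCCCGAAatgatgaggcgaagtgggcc
Irf9, GAS core 99 bases before the start, chr15:33065717-33065765, plus strand: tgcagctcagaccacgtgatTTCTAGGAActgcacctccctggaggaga

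Library totals ran from 41253848 estimated counts (control rat 9) to 58871101 (doxorubicin rat 2). Summed over 12 pan-germ cell markers, control libraries held 2488 to 2593 CPM and doxorubicin libraries 2512 to 2628 CPM, with the germ cell helicase Ddx4 at 377.1 ± 23.9 and 390.0 ± 5.64 CPM (SD, n = 4 each) and the RNA-binding protein Dazl at 751.6 ± 25.4 and 784.4 ± 12.6 CPM. Of 17 macrophage and leukocyte markers, 5 averaged at least 1 CPM in controls, and the list summed to 29.5 to 36.5 CPM in controls and to 31.5 to 33.6 CPM after doxorubicin. Its highest genes in controls were Mrc1 (17.9 CPM) and Cd3e (4.30 CPM), whereas the pan-leukocyte phosphatase Ptprc averaged 0.65 and 0.68 CPM in control and doxorubicin rats. The macrophage gene Adgre1 averaged 0.015 and 0.0090 CPM and the complement gene C1qa 0.037 and 0.0088 CPM in the same order. The related complement genes went the other way, with C1qb at 0.014 and 0.037 CPM and C1qc at 0.022 and 0.035 CPM. None of these genes passed the filter on low counts, so no direction is read from them. Endothelial markers (10 genes) summed to 93.5 to 111.0 CPM in controls and 105.2 to 117.6 CPM after doxorubicin, mostly from Pecam1 (mean 70.7 and 76.5 CPM), with Egfl7 next (10.3 and 10.9 CPM). Sertoli markers (10 genes) summed to 73.9 to 81.5 and 71.2 to 85.5 CPM, and Leydig and peritubular markers (12 genes) to 62.3 to 70.8 and 54.7 to 72.1 CPM, in the same order. Their highest genes were Inha (28.5 and 29.8 CPM) and Clu (23.2 and 23.2 CPM), and Col1a1 (22.5 and 20.2 CPM) and Col1a2 (15.5 and 12.9 CPM). Of the marker lists, the erythroid list (7 genes, summing to 7.14 to 9.42 CPM in controls and 9.02 to 14.7 CPM after doxorubicin) was the one with an edgeR call. Its anion exchanger Slc4a1 averaged 3.09 ± 0.35 CPM in controls and 7.48 ± 2.21 CPM after the drug (SD, n = 4 each; log2 fold change 1.28 ± 0.18, SE; edgeR adjusted p = 0.0339). The globins Hba-a1 (2.06 and 1.121 CPM) and Hbb (1.55 and 0.69 CPM) were lower without overlap, with adjusted p of 0.206 and 0.192 from edgeR and 0.0418 and 0.0265 from DESeq2. The part of erythroid cells in the interferon values was not tested. In libraries from sorted cells, fewer cells of a type and less RNA per cell cannot be told apart.

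Control rat 1 and doxorubicin rat 2 stood apart from the other 6 rats. Both were above all other libraries for Irf1, Isg15 and Ifih1, and both were below all others for Irf9 and Ifit3, which makes 5 of the 9 genes. The same placing of these rats at a shared end held for 23.4% of all genes tested, with 12.2% above and 11.3% below. Among 119 other genes of the pathway it held for 35.3%, with 31.1% above and 4.2% below. These were also the deepest libraries, at 57700969 and 58871101 estimated counts. Their macrophage and leukocyte sums were 36.5 and 33.3 CPM, against 29.5 to 33.6 CPM in the other 6. The part of depth or of these cells in the placing was not tested. Without both, the log2 fold changes described below were 0.09 for Irf1, -0.070 for Irf3, 0.02 for Irf9, -0.08 for Stat2, 0.01 for Isg15, 0.29 for Ifit3 and 0.22 for Mx2, and none of the 9 genes was called.

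**Figure D1:**
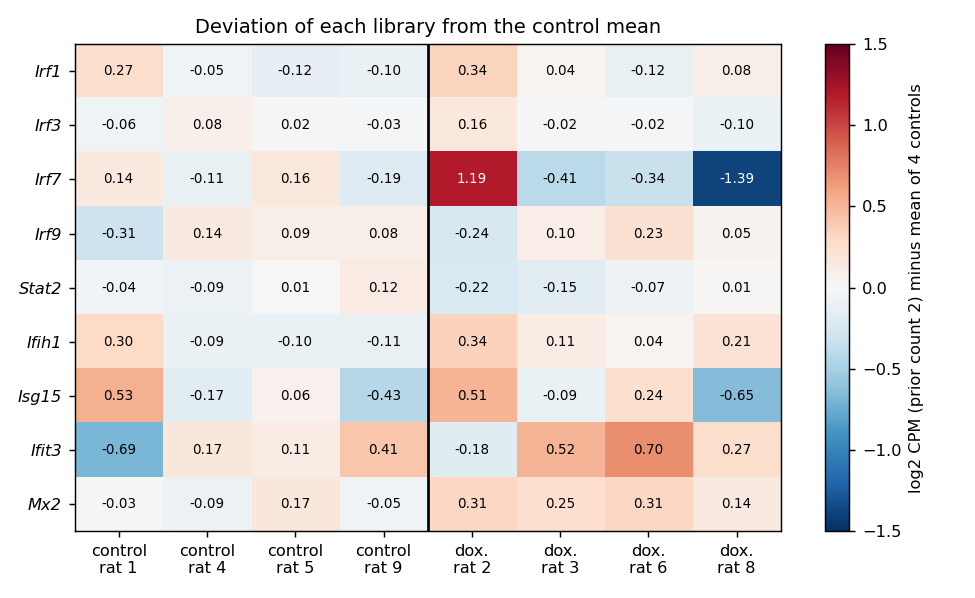
Deviation of each interferon gene (rows) in each library (columns) from the mean of the 4 control libraries, in log2 CPM with a prior count of 2; red is above and blue is below that mean. Control rat 1 and doxorubicin rat 2 share the red cells of Irf1 and Ifih1 and the blue cells of Irf9, and the strongest colours are those of Irf7 in doxorubicin rats 2 and 8.

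The interferons themselves were at or near the limit of detection. Of 8 ligand genes in the table, none passed the filter on low counts. The type I interferon Ifnb1 and the type II interferon Ifng had 0 counts in all 8 libraries, which allows a level of up to 0.0519 to 0.0719 CPM per library (3 counts, counting error only). Ifne, an epithelial type I interferon, gave the most counts, 45 over the 8 libraries. It had 5, 1, 3 and 4 counts in control rats 1, 4, 5 and 9 and 3, 8, 9 and 12 counts in doxorubicin rats 2, 3, 6 and 8, so the groups overlapped. Ifna1 gave 10 counts over all libraries, of which 6 came from control rat 5, and the remaining ligands (Ifna4, Ifnk, Ifnl1 and Ifnl3) gave 2 to 9 counts in total.

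None of the 9 interferon genes was called by edgeR's quasi-likelihood test with Benjamini-Hochberg adjustment, against 0.112% of all genes tested (19 of 16976, of which 0.106% were higher and 0.00589% lower after doxorubicin). DESeq2 called 0 of 9, against 0.873% of its genes. At an unadjusted p under 0.05 the edgeR count was 1 of 9 (Mx2), against 6.74% of all genes. In none of the 9 did the groups separate without overlap, against 4.72% of all genes (2.77% higher and 1.95% lower). Fold changes were above 0 on the log2 scale for 8 genes and below 0 for Stat2, with a median of 0.09 against a median of -0.0047 over all genes. These counts rested on doxorubicin rat 2: without it, 4 of the 9 were above 0 and the median was -0.0033. Without both control rat 1 and doxorubicin rat 2, 6 of the 9 were above 0 and the median was 0.02. For the 6 genes with at least 1 CPM in controls, the 95% intervals of the fold lay between 0.850 and 1.36. For Irf7, Isg15 and Ifit3, which had 4 to 47.3 estimated counts per library, the intervals of the fold were wider, from 0.490 to 2.33 for Irf7, from 0.625 to 1.6 for Isg15 and from 0.776 to 2.08 for Ifit3.

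**Figure D2:**
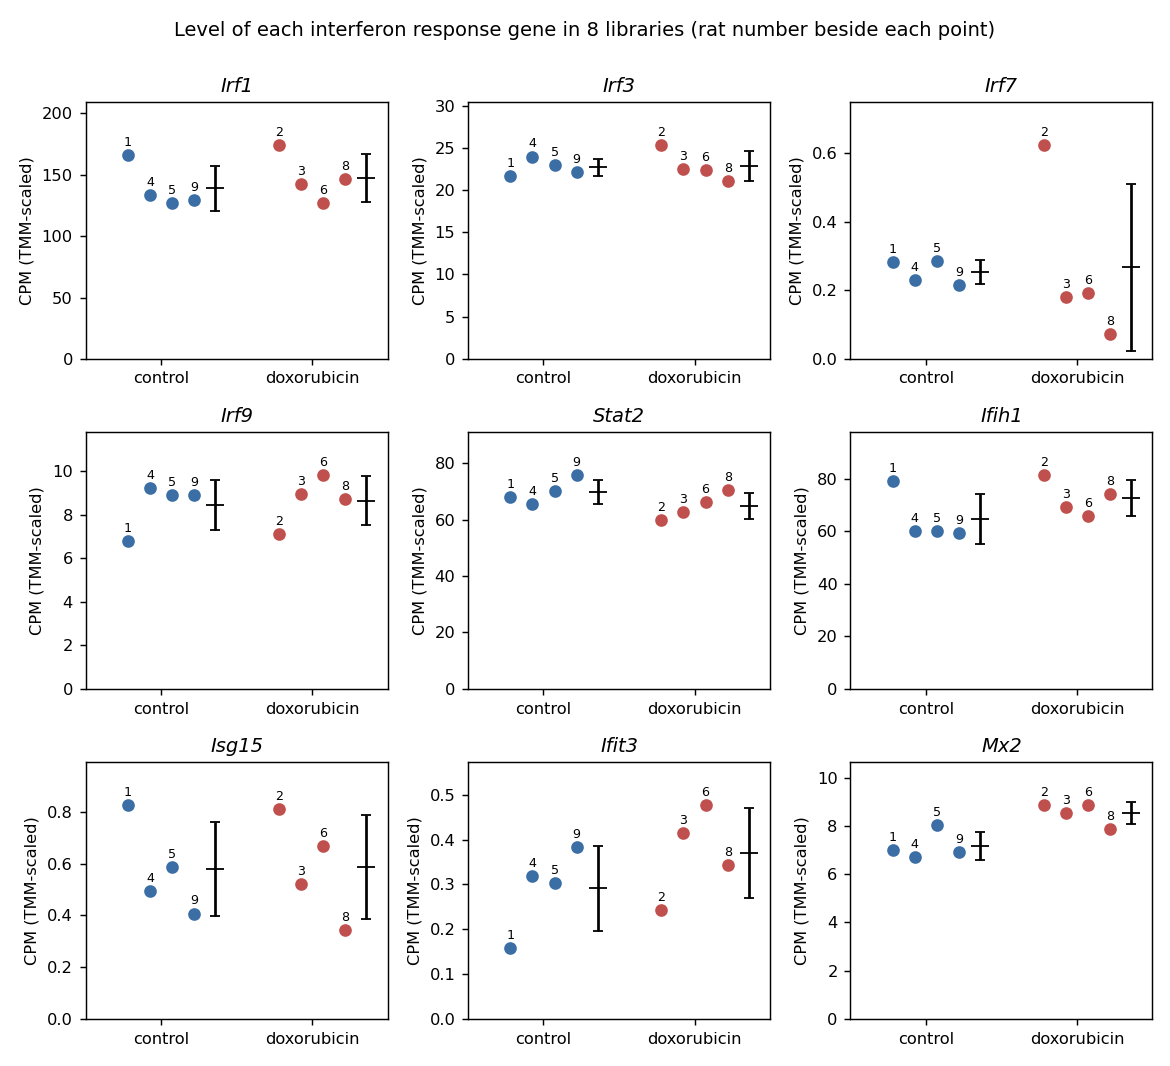
TMM-scaled CPM of each interferon gene in the 4 control and 4 doxorubicin libraries, with 1 panel per gene; points are single rats and bars are the group mean with its SD. The groups overlap in every panel, and the nearest to a separation is Mx2, where control rat 5 (8.04 CPM) lies above doxorubicin rat 8 (7.89 CPM).

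Among the transcription factors, Irf1 is an activator induced by interferon gamma and by inflammatory signals, whose promoter holds the GAS core printed above. It stood at 166.1, 133.2, 127.0 and 129.2 CPM in control rats 1, 4, 5 and 9 and at 174.2, 142.1, 127.3 and 146.2 CPM in doxorubicin rats 2, 3, 6 and 8. Control rat 1 exceeded 3 of the 4 doxorubicin rats, and doxorubicin rat 6 lay within the range of the other controls. On the log2 scale the difference was 0.09 ± 0.11 (SE) with an edgeR adjusted p of 0.961. With 5342 to 10069 counts per library, counting error was at most 1.37% of a library's value, while the coefficient of variation between rats was 13.2% in controls and 13.3% after doxorubicin.

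Irf3, the constitutive factor activated by phosphorylation downstream of nucleic acid sensors, had a coefficient of variation of 4.41% in controls and 7.83% after doxorubicin. Its levels were 21.7, 24.0, 22.9 and 22.2 CPM in control rats 1, 4, 5 and 9 and 25.3, 22.4, 22.3 and 21.1 CPM in doxorubicin rats 2, 3, 6 and 8. The highest and the lowest library were both from doxorubicin rats. Its log2 fold change was 0.01 ± 0.07 (SE), with a 95% interval of -0.14 to 0.15 and an edgeR adjusted p of 0.996.

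Irf7, which amplifies type I interferon production and is itself induced by interferon, was detected at a low level. It gave 16, 13, 15 and 9 counts in control rats 1, 4, 5 and 9, equal to 0.28, 0.23, 0.28 and 0.22 CPM. In doxorubicin rats 2, 3, 6 and 8 it gave 36, 10, 8 and 4 counts, equal to 0.62, 0.18, 0.19 and 0.072 CPM. Rat 2 was above every control and the other 3 doxorubicin rats were below every control, so the coefficient of variation was 91.3% after doxorubicin and 13.9% in controls. A log2 fold change of 0.10 ± 0.52 (SE) had an edgeR adjusted p of 0.993. It depended on doxorubicin rat 2: without that rat it was -0.80, and without both control rat 1 and doxorubicin rat 2 it was -0.75, still not past the threshold.

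Irf9 and Stat2 are the DNA-binding and transactivating partners in the complex formed after type I interferon signals. Irf9 stood at 6.77, 9.23, 8.91 and 8.90 CPM in control rats 1, 4, 5 and 9 and at 7.11, 8.97, 9.82 and 8.70 CPM in doxorubicin rats 2, 3, 6 and 8. Rats 1 and 2 were the low ones in their groups and the remaining 6 lay between 8.70 and 9.82 CPM. For Irf9 the log2 fold change was 0.03 ± 0.12 (SE), edgeR adjusted p = 0.988. Stat2 stood at 68.0, 65.6, 70.0 and 75.7 CPM in control rats 1, 4, 5 and 9 and at 59.7, 62.6, 66.3 and 70.4 CPM in doxorubicin rats 2, 3, 6 and 8. It was the gene with a fold change below 0, at -0.11 ± 0.06 (SE) on the log2 scale with a 95% interval of -0.23 to 0.02. Doxorubicin rats 6 and 8 lay within the control range, and the edgeR adjusted p was 0.797.

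Ifih1 encodes the cytosolic sensor MDA5, which recognises long double-stranded RNA and is induced by interferon. Its levels were 79.1, 60.1, 60.1 and 59.5 CPM in control rats 1, 4, 5 and 9 and 81.4, 69.4, 65.9 and 74.4 CPM in doxorubicin rats 2, 3, 6 and 8. Control rat 1 exceeded 3 of the 4 doxorubicin rats, and each of the other 3 controls was below every doxorubicin rat. Doxorubicin minus control was 0.17 ± 0.10 (SE) on the log2 scale, with a 95% interval of -0.06 to 0.40 and an edgeR adjusted p of 0.842. Without control rat 1 it was 0.28 with an edgeR adjusted p of 0.194. Without both control rat 1 and doxorubicin rat 2, a setting chosen after seeing the data, it was 0.22 ± 0.05 (SE) with an edgeR adjusted p of 0.0611. Neither passed the threshold.

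Among the effectors, Isg15, a ubiquitin-like modifier that is among the most strongly induced products of type I interferon, was at a low level. It stood at 0.83, 0.50, 0.59 and 0.41 CPM in control rats 1, 4, 5 and 9 and at 0.81, 0.52, 0.67 and 0.34 CPM in doxorubicin rats 2, 3, 6 and 8. Both groups spanned nearly the same range, and the means were 0.580 ± 0.180 and 0.587 ± 0.201 CPM (SD, n = 4 each). The difference on the log2 scale was 0.00 ± 0.31 (SE), with a 95% interval of -0.68 to 0.68.

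Ifit3, an antiviral adaptor of the tetratricopeptide repeat family whose promoter holds the ISRE core printed above, gave 8.84 to 23.2 estimated counts per library. It stood at 0.16, 0.32, 0.30 and 0.38 CPM in control rats 1, 4, 5 and 9 and at 0.24, 0.42, 0.48 and 0.34 CPM in doxorubicin rats 2, 3, 6 and 8. Rats 1 and 2 were the lowest of their groups. The log2 fold change of 0.35 ± 0.33 (SE) was the largest of the 9, but its 95% interval ran from -0.37 to 1.06 and the edgeR adjusted p was 0.938.

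Mx2 encodes a dynamin-like antiviral GTPase. Its levels were 7.02, 6.73, 8.04 and 6.93 CPM in control rats 1, 4, 5 and 9 and 8.86, 8.53, 8.87 and 7.89 CPM in doxorubicin rats 2, 3, 6 and 8. All doxorubicin rats exceeded 3 of the 4 controls, and control rat 5 exceeded doxorubicin rat 8. Mx2 had a log2 fold change of 0.25 ± 0.09 (SE), a 1.19-fold difference with a 95% interval of 1.04 to 1.36. The unadjusted p was 0.0158, and after adjustment over all genes it was 0.529 with edgeR and 0.331 with DESeq2. Leaving out any single library gave log2 fold changes of 0.22 to 0.31 and adjusted p of 0.492 to 0.911.

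**Figure D3:**
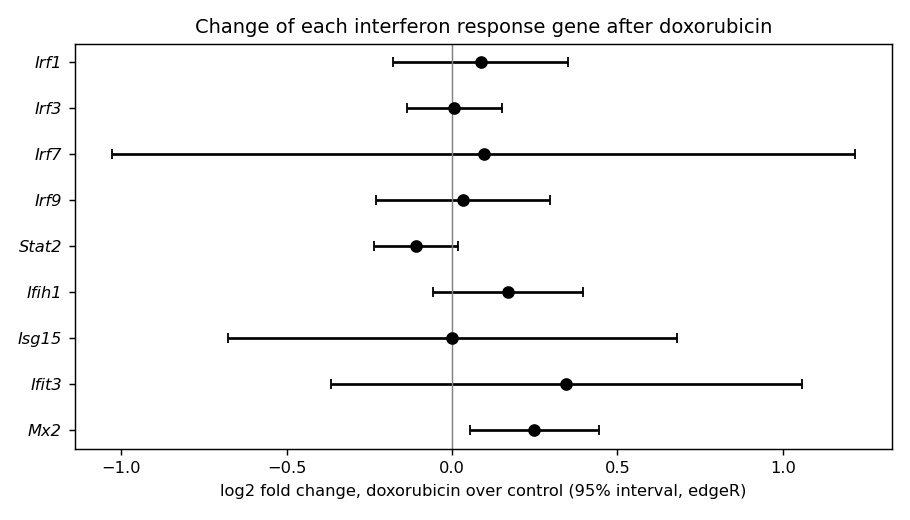
Log2 fold change, doxorubicin minus control, of the 9 interferon genes from edgeR's quasi-likelihood fit, with 95% intervals as horizontal bars. The interval of Mx2 (0.06 to 0.44) lies above 0 before adjustment for multiple tests, and those of Irf7, Isg15 and Ifit3 are the widest.

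The other genes of the pathway were taken from lists covering receptors and JAK-STAT kinases, further interferon regulatory factors, nucleic acid sensors, type I interferon-stimulated genes, interferon gamma-stimulated and antigen presentation genes, and negative regulators. With the ligands these lists held 136 genes of the table, of which 119 were tested. EdgeR called 0 of 119 at an adjusted p under 0.05, and at an unadjusted p under 0.05 it counted 12 higher and 3 lower, or 12.6% against 6.74% of all genes. DESeq2 called 3 of them, all higher (Nlrc5, Tap1 and Helz2). Fold changes were above 0 on the log2 scale for 71 genes and below 0 for 48, with a median of 0.03. That put 59.7% above 0, against 47.8% of all genes. Without doxorubicin rat 2, 59 of the 119 were above 0 with a median of -0.0026, against 8183 of 17085 for all genes. Without both control rat 1 and doxorubicin rat 2, 67 of the 119 were above 0 with a median of 0.04. Groups did not overlap for 7 genes upward and 2 downward, or 7.56% against 4.72% of all genes.

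The antigen presentation list (22 genes tested, median log2 fold change 0.04) held the largest difference. Nlrc5, the transactivator of MHC class I genes, stood at 1.04, 1.38, 1.00 and 1.10 CPM in control rats 1, 4, 5 and 9 and at 3.98, 1.91, 2.29 and 2.75 CPM in doxorubicin rats 2, 3, 6 and 8. Every doxorubicin rat was above every control. Nlrc5 had a log2 fold change of 1.27 ± 0.22 (SE), and its adjusted p lay on different sides of the threshold, at 0.0589 with edgeR and 9e-05 with DESeq2. It was 0.0258 with edgeR without doxorubicin rat 2 and 0.0427 without doxorubicin rat 3. When any of the other 6 libraries was left out, it was 0.0703 to 0.275. Without both control rat 1 and doxorubicin rat 2, a setting chosen after seeing the data, it was 0.0264.

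Tap1, a subunit of the transporter that loads peptides onto MHC class I, stood at 4.87, 3.35, 2.75 and 2.42 CPM in control rats 1, 4, 5 and 9. In doxorubicin rats 2, 3, 6 and 8 it stood at 8.56, 5.20, 4.79 and 5.90 CPM. Control rat 1 lay just above doxorubicin rat 6, and no other control reached a doxorubicin rat. The log2 fold change was 0.86 ± 0.24 (SE), with an adjusted p of 0.335 from edgeR and 0.0186 from DESeq2. Without both control rat 1 and doxorubicin rat 2, a setting chosen after seeing the data, it was 0.89 and the edgeR adjusted p was 0.00386. The Tap1 promoter window holds an ISRE core 121 bases before the start (GRCr8, gene's strand, motif in capitals), which is shown because Tap1 was called by DESeq2. No ISRE or GAS match before the start was recorded for Nlrc5 or Helz2, which DESeq2 also called. Only matches were recorded for these genes, and not whether each had a promoter window, so this is not a negative result. Matches after the start were not recorded for them either.
Tap1, chr20:4668635-4668684, minus strand: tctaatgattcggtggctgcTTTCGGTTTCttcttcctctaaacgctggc

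The genes of that list with the highest CPM in controls, which is not scaled for length, were the peptide-loading chaperone Tapbp, at 273.6 ± 17.1 CPM in control rats and 290.4 ± 12.5 CPM in doxorubicin rats (SD, n = 4 each), and the proteasome activator Psme2, at 167.5 ± 20.2 and 172.6 ± 11.6 CPM. Neither passed the test, with edgeR adjusted p of 0.797 and 0.973. The MHC class I genes RT1-A1, RT1-A2 and B2m of the list had log2 fold changes of 0.08, 0.13 and -0.04. Their edgeR adjusted p were 0.961, 0.968 and 0.98. For Tap2, Psmb8 and Psmb9 the log2 fold changes were 0.02, 0.01 and 0.03, and none of these genes was called. Endothelial cells also express MHC class I genes, and the endothelial marker sums given above overlapped between the groups. Of the 8 markers tested, 6 had log2 fold changes above 0, with a median of 0.05, and none was called. The values were 0.18 for Vwf and Tie1, 0.11 for Pecam1, 0.09 for Egfl7, 0.01 for Tek and 0.00 for Kdr. For Flt1 and Cdh5 they were -0.17 and -0.20. The part of endothelial cells in the Nlrc5 and Tap1 values was not tested.

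Of 52 type I interferon-stimulated genes tested, none was called by edgeR, 33 had fold changes above 0 and 19 below, and the median was 0.05. Helz2, a helicase coactivator, stood at 3.34, 1.98, 3.43 and 2.85 CPM in control rats 1, 4, 5 and 9 and at 6.78, 4.37, 3.98 and 4.58 CPM in doxorubicin rats 2, 3, 6 and 8. The groups did not overlap, and doxorubicin rat 2 was well above the other 3. The log2 fold change was 0.77 ± 0.20 (SE), with an adjusted p of 0.265 from edgeR and 0.0261 from DESeq2. The ADP-ribosyltransferase Parp10 averaged 27.7 CPM in control rats against 33.4 CPM in doxorubicin rats, and the ubiquitin ligase Dtx3l averaged 33.0 and 39.8 CPM. The exonuclease Isg20 averaged 8.27 and 10.2 CPM, the secreted glycoprotein Lgals3bp 18.1 and 21.3 CPM, and the antibody receptor and ubiquitin ligase Trim21 56.8 and 61.1 CPM. These 5 genes had edgeR adjusted p between 0.284 and 0.665 and none was called. Samd9l, an antiviral factor, was lower, with 1.41 CPM in control rats and 1.03 CPM in doxorubicin rats (adjusted p = 0.682, edgeR). The genes of the list with the highest CPM in controls, the RNA editing enzyme Adar (147.4 and 145.9 CPM) and Parp12 (115.5 and 123.8 CPM), had edgeR adjusted p of 0.981 and 0.957.

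The remaining lists contained no gene called by either tool. Among 8 further interferon regulatory factors and their partners, Irf8, a factor of myeloid cells, stood at 13.0, 14.3, 12.4 and 14.2 CPM in control rats 1, 4, 5 and 9. In doxorubicin rats 2, 3, 6 and 8 it stood at 19.0, 15.1, 15.6 and 17.2 CPM. The groups did not overlap, and the log2 fold change of 0.32 ± 0.09 (SE) had an adjusted p of 0.277 with edgeR and 0.0577 with DESeq2. The macrophage and leukocyte sums given above lay inside the control range in all doxorubicin libraries, with Mrc1 as their largest part and control rat 1 (Mrc1 at 22.3 CPM) at the top of that range. Of the 12 markers tested, 9 had log2 fold changes above 0, with a median of 0.14, among them Itgam (0.66), Csf1r (0.33) and Cd14 (0.26), and none was called. Their part in the Irf8 value was not tested. The co-repressors Irf2bp1 (99.6 and 100.5 CPM) and Irf2bpl (97.2 and 96.4 CPM) had the highest CPM of that list in controls.

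Among 19 sensors and adaptors, 10 fold changes were above 0 and 9 below. The endosomal RNA sensor Tlr3 averaged 4.43 CPM in controls and 6.08 CPM after doxorubicin, with a log2 fold change of 0.46 ± 0.19 (SE) and an edgeR adjusted p of 0.672. The helicase Ddx41 (127.9 and 129.9 CPM) and the adaptor Traf3 (49.3 and 53.8 CPM) had the highest CPM in controls and were not called. Among 9 receptors and kinases, 4 fold changes were above 0 and 5 below. The interferon lambda receptor Ifnlr1 averaged 22.2 CPM in controls and 20.1 CPM after doxorubicin without overlap (edgeR adjusted p = 0.729). Jak1 averaged 598.0 and 637.3 CPM and Jak2 63.4 and 62.0 CPM, with edgeR adjusted p of 0.941 and 0.964.

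The negative regulators (9 tested) were split, with 5 fold changes above 0 and 4 below. The phosphatase Ptpn6 averaged 10.9 CPM in control rats against 13.3 CPM in doxorubicin rats without overlap, and the ubiquitin editor Tnfaip3 averaged 7.90 and 9.53 CPM. Their edgeR adjusted p were 0.339 and 0.712. Highest in CPM in controls were the SUMO ligase Pias1 (114.8 and 113.9 CPM) and Trim24 (65.6 and 63.7 CPM), neither of which was called.

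**Figure D4:**
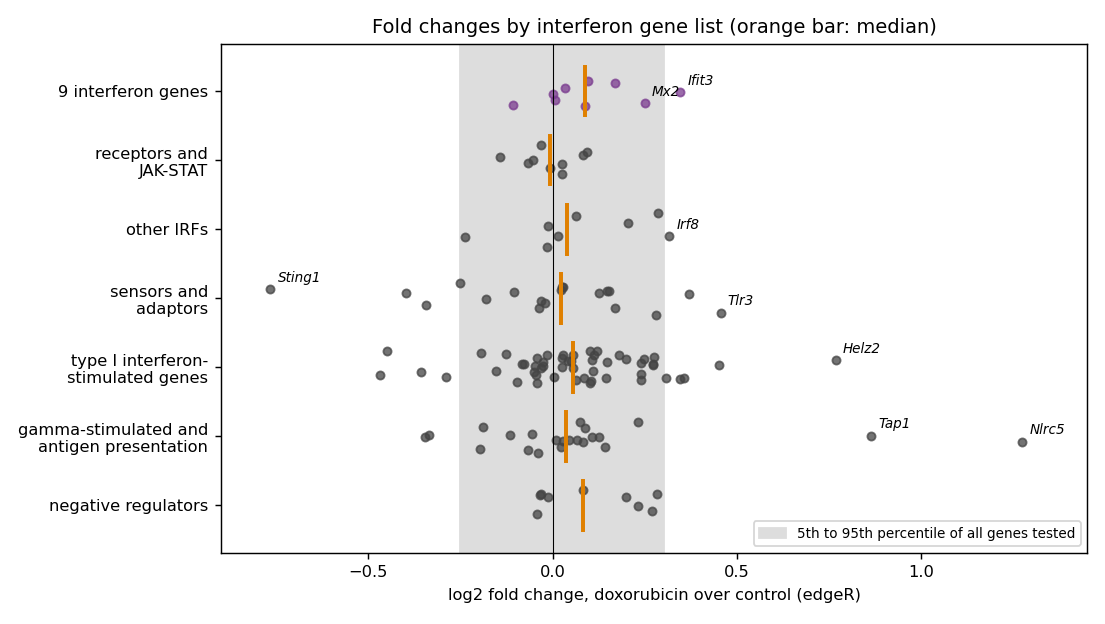
Log2 fold change, doxorubicin minus control, of each tested gene (points) in the interferon genes and in the other lists of the pathway (rows), with orange bars at the list medians and a grey band from the 5th to the 95th percentile of all genes tested (-0.25 to 0.30). Nlrc5 (1.27), Tap1 (0.86) and Helz2 (0.77) lie farthest to the right, while the list medians range from -0.01 to 0.09.

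Genes whose pattern over the 8 libraries was most like that of an interferon gene were found by Pearson's r of log2 CPM among 13070 genes, as a description of libraries that share treatment, depth and the placing of rats 1 and 2. The genes named are the highest of that search, so a high r follows in part from the search itself. Values of r without 2 libraries reuse libraries that chose these genes and are not an independent check. Irf1 was followed most closely by Clmp, Bhlhe40 and Clptm1l, each with r = 0.99, and without the 2 libraries farthest from its median (control rat 1 and doxorubicin rat 2) these were 0.99, 0.97 and 0.97. Ifih1 was followed by Lgals8 (r = 0.99), Bcl6b and Parp9 (r = 0.98 each), with 0.97, 0.99 and 0.98 without the same rats. Parp9 is itself an interferon-stimulated gene of the lists above. Irf9 was followed by Pgk1 (r = 0.99), Hnrnph3 and Lingo1 (r = 0.98 each), which dropped to 0.88, 0.80 and 0.84 without these rats. For Mx2 the most alike were Hpse2 (r = 0.95), Ints10 and Wdr45 (r = 0.94 each), and for Stat2 they were Kcnn2 (r = 0.98), Ttyh2 and Pcnt (r = 0.95 each). Irf3 was followed by Fam131b (r = 0.95), Oplah (r = 0.92) and Als2cl (r = 0.91). Without the 2 libraries farthest from each gene's own median, r was 0.89 for each gene following Mx2. It was 0.84 to 0.93 for those following Stat2 and 0.75 to 0.95 for those following Irf3. For the 3 genes with few counts the patterns are imprecise. Irf7 was followed by Pcdhga5, Gadl1 (r = 0.96 each) and Sdc3 (r = 0.94). Isg15 was followed by Tbata, Trpm2 (r = 0.97 each) and St6galnac4 (r = 0.96), and Ifit3 by Scaper (r = 0.98), Potem (r = 0.97) and Vom1r19 (r = 0.96). Without the 2 farthest libraries, r was 0.74 to 0.83 for Irf7, 0.93 to 0.96 for Isg15 and 0.87 to 0.89 for Ifit3.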

How the data were processed

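For 4 control and 4 doxorubicin libraries, the authors deposited estimated counts per gene without normalization. Per the submitters' processing notes, the build was rn6 and the tools included kallisto 0.48.0 and featureCounts, fastp 0.23.2 and Trimmomatic, and DESeq2 1.40.2. The sources used here give neither their roles nor the strand setting. RNA came from a PicoPure kit with a RIN above 8, per the labels' protocols. Between 32.5% and 33.6% of values in a library were more than 1e-06 from a whole number, so counts were rounded for the tests. Libraries are separate rats by their titles, and every pair differed by more than sampling noise (lowest chi-square divided by its degrees of freedom, 6.22).

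In R 4.3.3, filterByExpr set which genes entered the test, TMM gave the scaling, and edgeR 4.0.16 gave the quasi-likelihood F test (glmQLFit with robust = TRUE, glmQLFTest, no covariate), with Benjamini-Hochberg adjustment over 16976 genes and a threshold of 0.05. DESeq2 1.42.0 and limma 3.58.1 (voom) were alternatives, as were other scalings, filters, left-out libraries and a term for the set of rat numbers. That term split rats 1, 2, 3 and 4 from rats 5, 6, 8 and 9. The labels do not name this split as a batch, and it does not adjust for the single rat. CPM are TMM-scaled. Levels are not compared between genes, since gene lengths of the files' build were not used here. On simulated data, the same test on 16976 genes recovered 67% of the 100 that were set to change 1.5-fold. It recovered 88% of the 100 set to change 2-fold, and 6 of its 161 calls were false. Each gene was drawn independently, with a spread between rats set by its expression level alone. Spread particular to a gene and the shared placing of rats 1 and 2 were therefore absent. More genes were set to change than the 19 called in the data, which eases the adjusted threshold. The shares recovered hold for that setting and are not the power in these data.

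The interferon genes and the lists were chosen with earlier results of these data known. The text names all 9 genes and, from each interferon list, genes past the threshold, genes with an unadjusted p under 0.05 and at least 1 CPM in a group, and the 2 with the highest CPM in controls. From marker lists it takes Ptprc and the 2 genes with the highest CPM in controls, and for likeness the 3 genes with the highest r. Other markers and other genes of the interferon lists are named where they bear on a result and were chosen after their values were seen. Of 227 listed genes, 12 were unmatched and are not analysed here, and 1 was matched through a RefSeq synonym. Promoter windows are from RefSeq (GRCr8). Reads shared by near-identical or overlapping genes could not be assigned with certainty.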

Additional observations from a re-analysis of the deposited data

Results flagged for a closer look

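In groups of 4 rats, 12 of 98 sets of values held a rat far from the other 3 (Dixon's test at 95%), where chance gives about 1 in 20. Control rat 1 accounted for 7 of them. It was high for Irf1 (166.1 CPM against 127.0 to 133.2 in the other controls), Ifih1 (79.1 against 59.5 to 60.1), Dtx3l (37.7 against 31.2 to 31.6) and Tapbp (299.0 against 262.3 to 267.2), and low for Irf9 (6.77 against 8.90 to 9.23). It was also high for the sum of the 9 interferon genes (349.9 CPM against 298.1 to 303.5) and of the type I interferon-stimulated genes (1258 against 1092 to 1118). Control rat 9 was low for Isg20 (7.70 CPM against 8.39 to 8.51).

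Among doxorubicin rats, rat 2 was high for Tnfaip3 (11.1 CPM against 8.91 to 9.13) and for the summed erythroid markers (14.7 against 9.02 to 9.84). Rat 6 was low for Trim21 (59.7 CPM against 61.6 to 61.7), and rat 3 was low for the summed macrophage and leukocyte markers (31.5 against 33.3 to 33.6).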

How the results depend on the processing

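No paired analysis was possible because the control and doxorubicin rats share no rat number in the labels. The count of called interferon genes was 0 under every alternative run, including the mean of at least 1 CPM, which left 6 of the 9 tested. Of 150 alternative fold changes of these genes, 133 kept their direction and 17 reversed. Irf3 turned to -0.0018 with library size only and to -0.070 without both control rat 1 and doxorubicin rat 2, a setting chosen after seeing the data. Irf7 turned to -0.30 with limma-voom and -0.75 without both rats. Isg15 turned to -0.0057 with library size only, -0.032 with limma-voom and -0.0020 with the rat number set as a term. Irf2bpl turned to 0.0027 without both rats. With each library left out in turn, log2 fold changes spanned 0 for Irf1 (-0.0033 to 0.18), Irf3 (-0.048 to 0.043), Irf7 (-0.80 to 0.42), Irf9 (-0.062 to 0.12), Isg15 (-0.21 to 0.23), Jak2 (-0.049 to 0.0031), Irf2bp1 (-0.016 to 0.038), Irf2bpl (-0.056 to 0.026), Adar (-0.044 to 0.017), Psme2 (-0.0026 to 0.13) and Pias1 (-0.030 to 0.020). Called genes of the other lists numbered 0 in the reported fit, 1 (Nlrc5) with library size only, no filter, robust = FALSE or the rat number set as a term, 3 with DESeq2, 3 without both rats (Nlrc5, Tap1 and Parp9), and 0 to 1 with a library left out. Calls over all genes numbered 19 in the reported fit, 169 with DESeq2, 53 with robust = FALSE, 61 with the rat number set as a term, 103 without both rats, and 1 to 62 with a library left out, the highest without doxorubicin rat 2. The cause of these changes was not tested. For Irf7, Isg15 and Ifit3, counting error at the mean count was 18.0% to 26.8%, and for Irf7 after doxorubicin the coefficient of variation between rats was larger still, at 91.3%.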

Other observations

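The adaptor Sting1, which relays cytosolic DNA signals to Irf3, split the libraries across groups (chosen after its values were seen). It stood at 1.60, 1.82, 8.13 and 8.51 CPM in control rats 1, 4, 5 and 9 and at 1.61, 1.53, 7.39 and 1.47 CPM in doxorubicin rats 2, 3, 6 and 8. Control rats 5 and 9 and doxorubicin rat 6 were thus at 7.39 to 8.51 CPM and the other 5 rats at 1.47 to 1.82 CPM, with no level between. The RNA sensor listed as Rig1, also chosen after its values were seen, was lowest in control rat 9 (3.21 CPM) and highest in doxorubicin rat 8 (11.1 CPM), with the other 6 rats at 6.55 to 9.89 CPM.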
